A study of Mus musculus with 8 samples.

Results

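Expression of 10 smooth muscle contractile genes was examined by RNA-seq in mesenchymal stem cells (MSCs) of the mouse line C3H10T1/2, which can become fat, muscle, bone or cartilage cells. The genes, *Acta2*, *Actg2*, *Tagln*, *Cnn1*, *Myl9*, *Myh11*, *Des*, *Tpm1*, *Tpm2* and *Lmod1*, were chosen by symbol and all 10 were among the 41325 gene symbols listed for each library. The 4 lines were shControl, labelled as a control shRNA line and given the genotype WT, and shKDM4D, shNFIB and shMLL1. These last carried shRNAs against the histone demethylase KDM4D, the transcription factor NFIB or the histone methyltransferase MLL1. The shKDM4D, shNFIB and shMLL1 lines were made with a pLKO.1 shRNA vector and selected as puromycin-resistant clones. The clone that was sequenced is not given in the sources used here. Nor is it given whether the shControl line had the same vector, selection and cloning. Each line was sampled as confluent cells at day 0 and again at day 5 of adipogenic differentiation. The cells of day 5 had received insulin at 10 µg/ml, dexamethasone at 1 µM and isobutylmethylxanthine at 0.5 mM with 10% serum until day 2, and insulin and then serum medium after that. With 1 library for each of the 8 conditions there is no replicate spread and no test between conditions, so the intervals given with each ratio are exact 95% intervals that cover counting error only, on reads that carry no molecular identifiers and are not independent molecules. Levels are RPKM, reads scaled to the exon length of the gene and to the mapped reads of the library, and "rose", "fell", "higher" and "lower" are used for a change of more than 2-fold in RPKM.

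Contractile smooth muscle is built from thin filaments of actin and tropomyosin, thick filaments of myosin, and a cytoskeleton of intermediate filaments that links them. Most genes of this set are known targets of serum response factor (SRF), which binds a short DNA element named the CArG box together with myocardin or the myocardin-related factors, whose activity follows the state of the actin cytoskeleton. *Acta2*, *Tagln* and *Cnn1* are also widely used as markers of myofibroblasts, and mesenchymal cells in culture commonly express part of the set without being smooth muscle.

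The promoters of the members were read for these elements because the set is known for SRF control. RefSeq promoters of GRCm38.p6, each 250 bases before to 50 after a gene start, were found for 7 of the 10 members, *Acta2*, *Cnn1*, *Myl9*, *Des*, *Tpm1*, *Tpm2* and *Lmod1*. A CArG box, CC and GG around 6 bases that are each A or T, was searched on both strands and was present in 1 of the 7, *Myl9*, against 1.81% of the 27025 genes with a promoter. With 1 G or C allowed in the core, the element was present in 2 of the 7, *Acta2* and *Myl9*, against 9.69% of all genes. The 4 windows are shown because they are the CArG-type elements found in the members, with the element in capitals and positions counted from the RefSeq gene start.
Acta2, chr19:34255438-34255467, - strand, element from -84 to -75: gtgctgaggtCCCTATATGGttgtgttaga
Acta2, chr19:34255388-34255417, - strand, element from -34 to -25: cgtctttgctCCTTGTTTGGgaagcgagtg
Myl9, chr2:156775293-156775322, + strand, element from -161 to -152: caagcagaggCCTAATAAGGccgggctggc
Myl9, chr2:156775355-156775384, + strand, element from -99 to -90: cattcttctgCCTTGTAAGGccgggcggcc

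The other element searched was CATTCC or its complement GGAATG, the core site of the TEAD factors. It was present in 3 of the 7 members, *Acta2*, *Tpm1* and *Lmod1*, against 16.6% of all genes, and it does not overlap the CArG letters in these windows.
Acta2, chr19:34255502-34255531, - strand, element from -146 to -141: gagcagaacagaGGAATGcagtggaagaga
Lmod1, chr1:135324671-135324700, + strand, element from -130 to -125: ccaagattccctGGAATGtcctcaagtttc
Tpm1, chr9:67049252-67049281, - strand, element from -56 to -51: tggctgtcctaaGGAATGcggtcgcccccc

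The libraries held between 15800000 and 38200000 mapped reads. In shNFIB cells *Nfib* had an RPKM of 2.31 against 9.92 in shControl cells at day 0, *Kmt2a*, which encodes MLL1, had 2.00 in shMLL1 cells against 5.17, and *Kdm4d* was covered by only 1 to 15 reads in every library. Of 7 MSC markers, 6 were over an RPKM of 1 in at least 1 library, with *Itgb1* between 138 and 265, *Ly6a* between 81.5 and 927, *Pdgfra* between 12.9 and 70.8, *Cd44* between 15.7 and 40.2 and *Eng* between 6.47 and 17.2 in the 8 libraries. *Nt5e* was at or near 0 in every library, and *Thy1* had an RPKM of 25.0 and 22.6 in shControl cells, 11.8 and 11.1 in shMLL1 cells and at most 0.139 in shKDM4D and shNFIB cells. The summed RPKM of 6 adipocyte markers was 0.702 or less at day 0 in all 4 lines. At day 5 it was 796 in the shControl, 25.5 in the shKDM4D, 0.936 in the shNFIB and 2.86 in the shMLL1 line. Of 9 skeletal and 8 cardiac muscle markers, *Acta1* and *Tnnt2* were the only ones over an RPKM of 1 in any library, *Myod1*, *Myl7* and *Nppa* were at 0 throughout, and *Ttn* had 3 to 9 reads in each library. Endothelial markers (5 genes) summed to at most 1.72 and blood cell markers (4 genes) to at most 1.64. As these are bulk cultures, fewer cells that express a gene and less RNA of it per cell cannot be told apart.

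The set did not have 1 level or 1 direction in these cells. *Acta2* had the highest level, with an RPKM of 289 or more, followed by *Tpm1* and *Tpm2* at 45.7 or more. *Actg2*, *Tagln*, *Myl9* and *Lmod1* were between 0.233 and 33.0, *Des* reached 1.35, and *Cnn1* and *Myh11*, the markers most restricted to mature smooth muscle, did not reach an RPKM of 1 in any library. From day 0 to day 5, *Tagln* and *Actg2* fell and *Lmod1* and *Des* rose in all 4 lines, the change of *Des* staying under 2-fold in each when 1 was added to each RPKM. The plot of RPKM by day shows each gene in the 8 libraries.

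**Figure D1:**
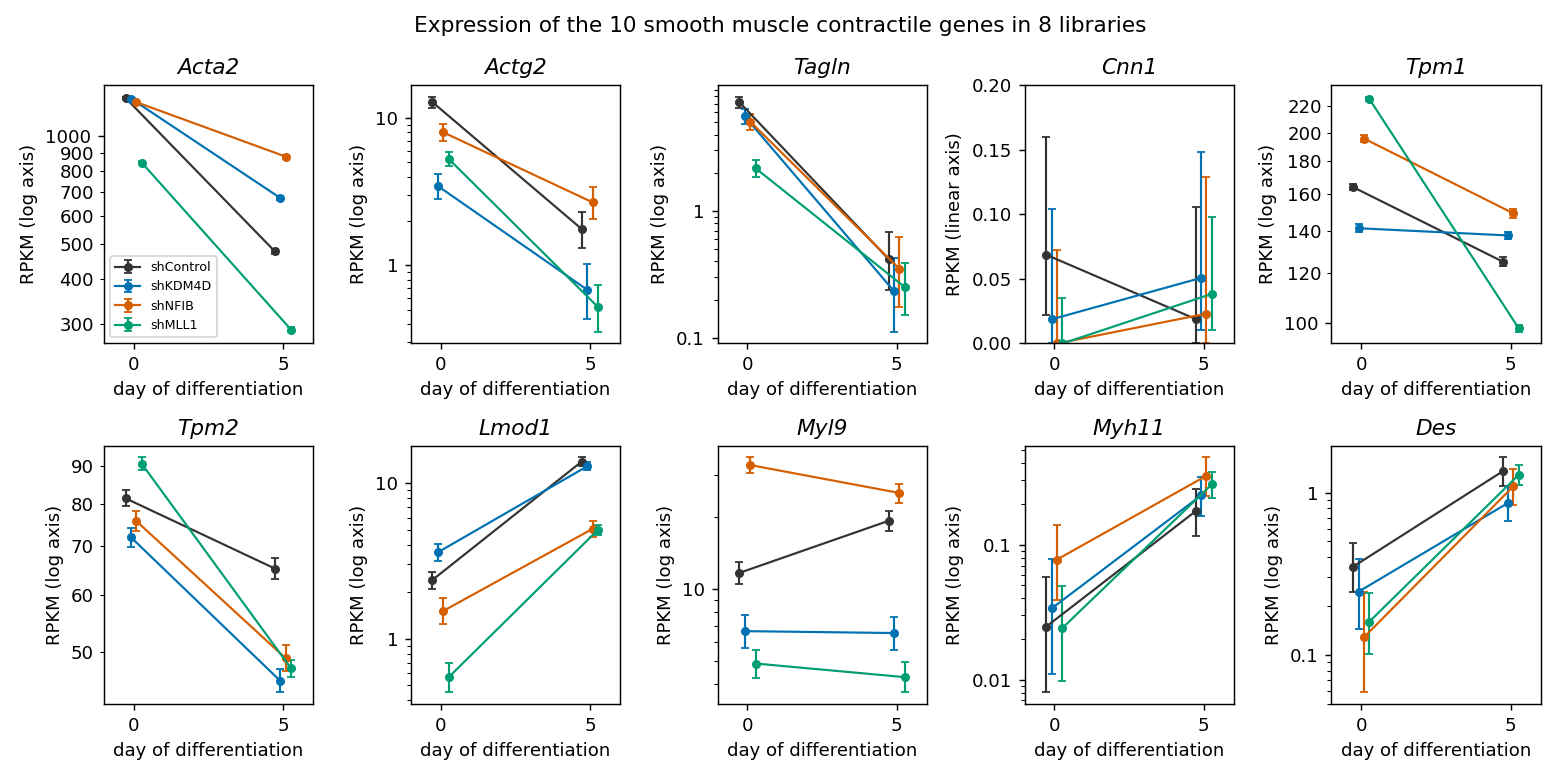
RPKM of the 10 genes at day 0 and day 5 of differentiation in the 4 lines, with 1 library per point and bars for the exact 95% counting interval. The axis is logarithmic except for *Cnn1*, and it does not start at the same value in each panel. *Acta2*, *Actg2* and *Tagln* slope down from day 0 to day 5 and *Lmod1*, *Myh11* and *Des* slope up in every line, while *Myl9* is ordered by line rather than by day.

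Among the thin filament genes, *Acta2* (chromosome 19 of GRCm38, from 34241090 to 34255590, protein coding) encodes smooth muscle alpha-actin. Its RPKM at day 0 was 1280 in the shControl, 1275 in the shKDM4D, 1246 in the shNFIB and 845 in the shMLL1 line, and at day 5 it was 478, 673, 878 and 289, respectively. Every day 5 value was below the day 0 value of the same line, but the spread between lines at day 5 was wider than at day 0. The log2 change over the 5 days was -1.42 (95% interval -1.45 to -1.40) in the shControl, -0.92 (-0.94 to -0.90) in the shKDM4D, -0.50 (-0.53 to -0.48) in the shNFIB and -1.55 (-1.57 to -1.52) in the shMLL1 line, so that *Acta2* fell past 2-fold in shControl and shMLL1 cells only. In the order of the 8 levels, shControl and shKDM4D cells at day 0 were the only neighbours whose ratio had an interval that held 0. Relative to *Actb*, the *Acta2* change in shMLL1 cells was -0.71, under the limit.

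*Actg2* (chromosome 6, from 83512905 to 83536265) encodes smooth muscle gamma-actin, the isoform of visceral smooth muscle. Its RPKM at day 0 was 12.8 in the shControl, 3.45 in the shKDM4D, 7.98 in the shNFIB and 5.28 in the shMLL1 line. At day 5 the values were 1.76, 0.683, 2.68 and 0.522, on 53, 23, 66 and 31 reads. It fell in each line, with log2 changes of -2.86 (95% interval -3.30 to -2.45), -2.34 (-3.06 to -1.67), -1.58 (-1.99 to -1.18) and -3.34 (-3.92 to -2.80) in the order of the lines above. Every day 0 value of *Actg2* was above every day 5 value, although the lowest at day 0, in shKDM4D cells, and the highest at day 5, in shNFIB cells, did not differ beyond their counting intervals.

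*Tagln* (chromosome 9, from 45929619 to 45936058) encodes transgelin, an actin-binding protein of the calponin family. It showed the largest decrease of the members in 3 of the 4 lines, with an RPKM at day 0 of 7.19 in the shControl, 5.56 in the shKDM4D, 5.07 in the shNFIB and 2.17 in the shMLL1 line. At day 5 the RPKM was 0.416, 0.233, 0.349 and 0.251 in the same order, on 16, 10, 11 and 19 reads. The log2 change of *Tagln* was -4.11 (-4.93 to -3.39), -4.58 (-5.66 to -3.67), -3.86 (-4.89 to -2.99) and -3.12 (-3.88 to -2.43), which placed it in the lowest 0.324% of the 11513 genes over 1 RPKM in shMLL1 cells and lower still in the other lines. In shMLL1 cells the decrease of *Actg2* was larger. *Tagln* was over 1 RPKM in its day 0 libraries alone, so a filter of 1 RPKM favours its fall and its low rank. The 4 day 5 levels of *Tagln* did not differ from each other beyond counting error. The exons of *Tagln* overlap those of the antisense gene *Gm48529* over 1241 bases, 62.4% of the exon length, and those of *Pcsk7* over 108 bases, and the strand setting of the read counting is not given in the sources used here. *Gm48529* had an RPKM between 0.255 and 0.634 in the 8 libraries, so the day 5 level of *Tagln* was of the size of its antisense neighbour.

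*Cnn1* (chromosome 9, from 22099216 to 22109630), which encodes calponin 1, was covered by 5, 1, 0 and 0 reads at day 0 in shControl, shKDM4D, shNFIB and shMLL1 cells and by 1, 3, 1 and 4 reads at day 5. Its highest RPKM was 0.0686. Of its ratios between libraries, only that of shMLL1 (0 reads) to shControl cells (5 reads) at day 0 had an interval that lay off 0, with an upper bound of -0.39, and no other difference in *Cnn1* was detectable at this depth.

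The tropomyosins, which lie along the actin filament and control the access of myosin, were abundant at both times. *Tpm1* (chromosome 9, from 67022590 to 67049406) has 21 annotated transcripts, muscle and non-muscle forms among them, which the gene-level RPKM does not separate. The RPKM of *Tpm1* was 164 and 125 at day 0 and day 5 in the shControl, 141 and 138 in the shKDM4D, 196 and 149 in the shNFIB and 226 and 98.2 in the shMLL1 line. The shMLL1 line thus had both the highest and the lowest *Tpm1* level. *Tpm1* fell in shMLL1 cells, with a log2 change of -1.20 (-1.22 to -1.18), and had changes of -0.39 in shControl, -0.04 in shKDM4D and -0.39 in shNFIB cells. Relative to *Actb* the *Tpm1* change in shMLL1 cells was -0.37.

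*Tpm2* (chromosome 4, from 43514711 to 43523765) had an RPKM of 81.4 and 65.1 in the shControl, 71.9 and 45.7 in the shKDM4D, 75.7 and 49.1 in the shNFIB and 90.8 and 47.5 in the shMLL1 line at day 0 and day 5. All day 5 values of *Tpm2* were below all day 0 values. The log2 change of *Tpm2* was -0.32 in the shControl, -0.66 in the shKDM4D, -0.63 in the shNFIB and -0.93 in the shMLL1 line, and none of these passed 2-fold.

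*Lmod1* (chromosome 1, from 135324807 to 135368065) encodes leiomodin 1, which starts new actin filaments in smooth muscle. It had an RPKM of 2.39 in the shControl, 3.59 in the shKDM4D, 1.51 in the shNFIB and 0.564 in the shMLL1 line at day 0, and of 13.8, 12.9, 5.08 and 5.01 at day 5. *Lmod1* rose in all 4 lines, by log2 changes of 2.53 (2.33 to 2.74), 1.84 (1.65 to 2.04), 1.76 (1.44 to 2.08) and 3.15 (2.83 to 3.49). Every day 5 level of *Lmod1* was above every day 0 level, and at day 5 the lines fell into a higher pair, shControl and shKDM4D, and a lower pair, shNFIB and shMLL1.

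Among the thick filament genes, *Myl9* (chromosome 2, from 156775420 to 156781658) encodes the myosin regulatory light chain of smooth muscle, whose phosphorylation triggers contraction. Its RPKM at day 0 and day 5 was 11.7 and 19.3 in the shControl, 6.65 and 6.53 in the shKDM4D, 33.0 and 25.2 in the shNFIB and 4.87 and 4.27 in the shMLL1 line. Both levels of *Myl9* in shNFIB cells were above all others and both levels in shMLL1 cells were below all others. The log2 change over the 5 days was 0.73 (0.52 to 0.93) in the shControl, -0.03 (-0.35 to 0.30) in the shKDM4D, -0.39 (-0.56 to -0.22) in the shNFIB and -0.19 (-0.48 to 0.10) in the shMLL1 line, so *Myl9* did not pass 2-fold over time in any line. Relative to *Gapdh* the changes of *Myl9* and *Tpm1* in shKDM4D cells were 0.44 and 0.43, and relative to *Actb* they were 0.30 and 0.29, of the opposite sign to those on the deposited scale. The *Myl9* change in shMLL1 cells was 0.64 relative to *Actb*.

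*Myh11* (chromosome 16, from 14194535 to 14291372), the smooth muscle myosin heavy chain, was close to the limit of detection. It was covered by 5, 5, 11 and 7 reads at day 0 and by 26, 38, 39 and 81 reads at day 5 in shControl, shKDM4D, shNFIB and shMLL1 cells. The RPKM of *Myh11* at day 5 was 0.177, 0.231, 0.324 and 0.280. The log2 change was 2.84 (1.44 to 4.58), 2.78 (1.43 to 4.48), 2.06 (1.07 to 3.18) and 3.54 (2.43 to 4.90), so that each interval lay above 2-fold even at this depth, whereas with 1 added to each RPKM the change of *Myh11* was between 0.20 and 0.32. Of the 50-base stretches of the *Myh11* transcripts, 0.340% are shared with *Myh9* or *Myh10*, which were at an RPKM of up to 106 and 32.7.

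*Des* (chromosome 1, from 75360329 to 75368579) encodes desmin, the intermediate filament protein of muscle. Its RPKM at day 0 was 0.350 in the shControl, 0.245 in the shKDM4D, 0.128 in the shNFIB and 0.160 in the shMLL1 line, on 35, 18, 9 and 23 reads. At day 5 the RPKM of *Des* was 1.35, 0.863, 1.09 and 1.29, on 98, 70, 65 and 184 reads. All day 5 levels were above all day 0 levels, and *Des* rose by log2 changes of 1.95 (1.38 to 2.55), 1.81 (1.05 to 2.65), 3.09 (2.08 to 4.28) and 3.0 (2.37 to 3.70). With 1 added to each RPKM the *Des* changes were 0.80, 0.58, 0.89 and 0.98, under the limit. *Des* passed the filter on low values through its day 5 libraries alone.

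Of the 10 members, 8 had an RPKM over 1 in at least 1 library, and calls were counted among these 8 beside the share of the 11513 genes over 1 RPKM that were called in the same comparison. In shControl cells 2 members rose, against 13.0% of all genes, and 3 fell, against 8.56%. Among the knockdown lines, shKDM4D had 2 members up (12.8% of all genes) and 2 down (8.44%), shNFIB had 2 up (12.6%) and 2 down (4.96%), and shMLL1 had 2 up (20.4%) and 4 down (6.89%). The rising members were *Lmod1* and *Des* each time, and *Tagln* was among those that fell each time. *Des* passed the filter through day 5 libraries alone and *Tagln* through day 0 libraries alone. The filter thus favours the rise of *Des* and the fall of *Tagln* in these counts. Relative to *Actb*, 50.3% of all genes rose and 1.43% fell in shMLL1 cells. Over all 10 members and on the log2(RPKM + 0.1) scale, the median change was -0.35 in the shControl, -0.03 in the shKDM4D, -0.39 in the shNFIB and -0.56 in the shMLL1 line, against 0.03, 0.03, 0.09 and 0.17 over the 11513 genes. The median hides the spread of the set, since members lay at both ends of the distribution of all genes.

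**Figure D2:**
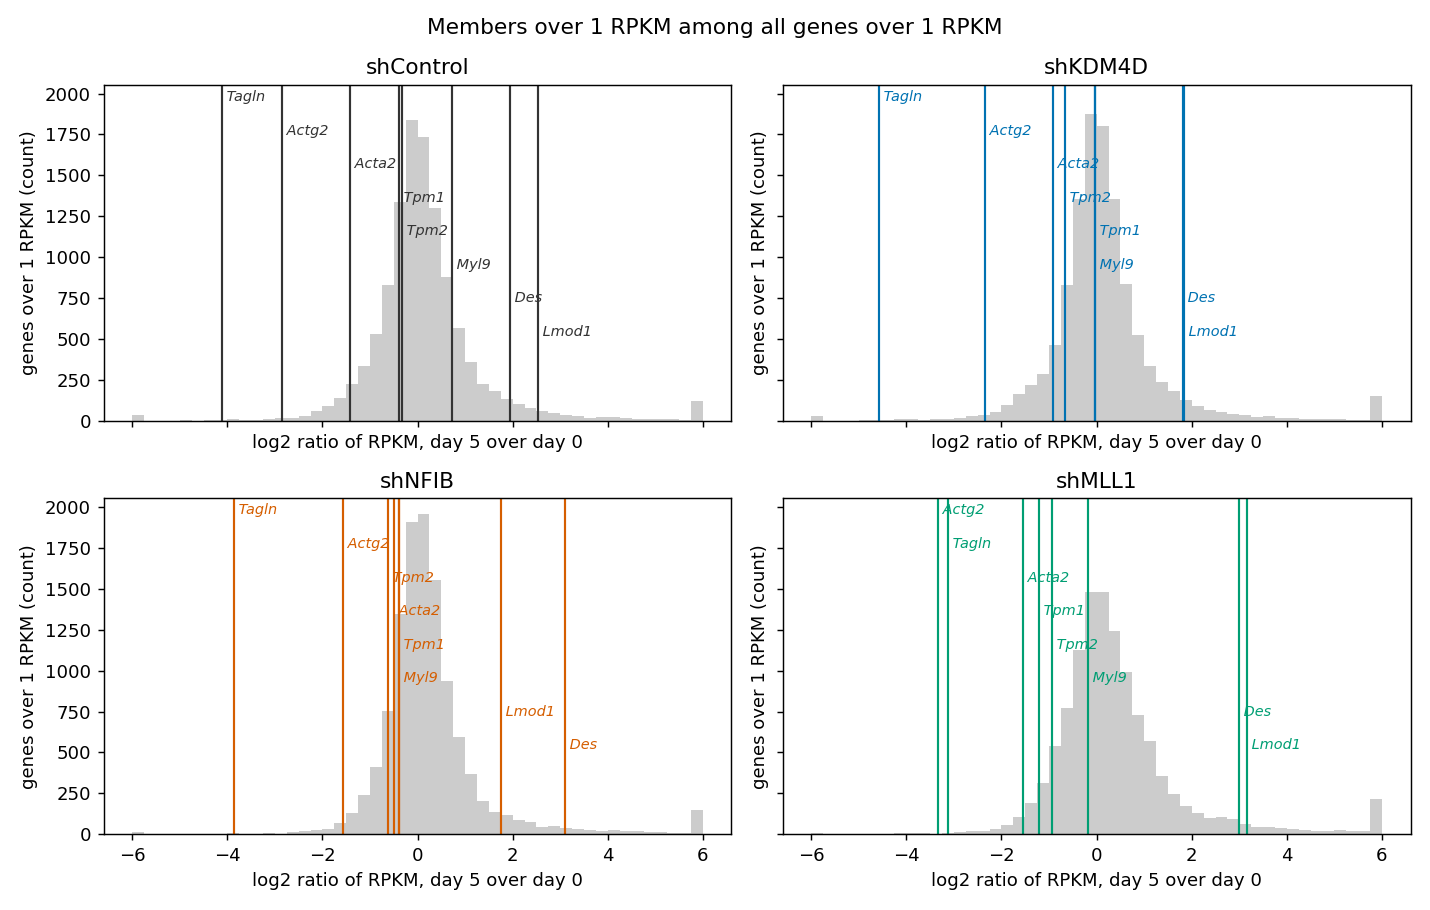
Histograms of the log2 ratio of RPKM, day 5 over day 0, for the 11513 genes over 1 RPKM in each line, with vertical lines at the 8 members over 1 RPKM. Genes beyond the range of the axis, or at 0 on 1 of the days, are gathered in the outermost bars. *Tagln* and *Actg2* lie in the left tail and *Lmod1* and *Des* in the right tail in all 4 panels.

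**Figure D3:**
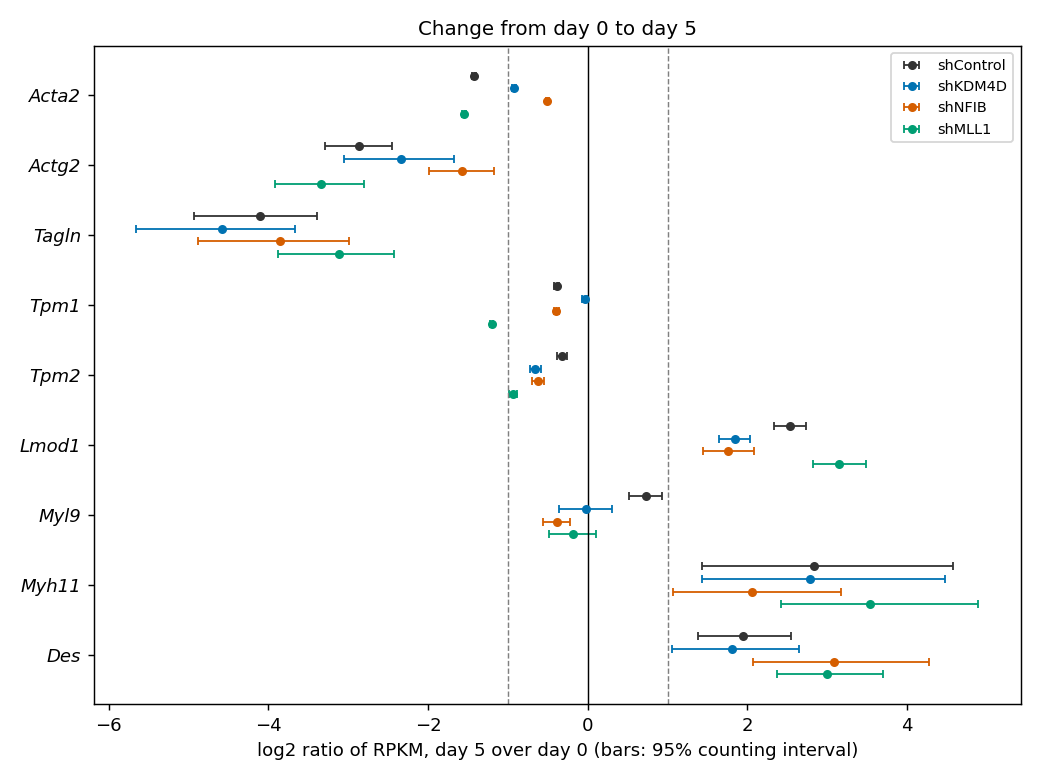
Log2 ratio of RPKM, day 5 over day 0, for 9 members in the 4 lines, with bars for the 95% counting interval and dashed lines at 2-fold; *Cnn1* is left out because it had 5 reads or fewer in every library. *Acta2* lies farther to the left in shControl and shMLL1 cells than in shKDM4D and shNFIB cells, and *Myl9* lies to the right of 0 in shControl cells only, whereas its change was 0.44 in shKDM4D cells relative to *Gapdh* and 0.64 in shMLL1 cells relative to *Actb*.

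The knockdown lines were then compared with shControl cells on the same day. The 3 comparisons of a day use the same shControl library, so a deviation of that library enters all of them. At day 0, *Actg2* was lower in shKDM4D cells, with a log2 ratio of -1.89 (-2.20 to -1.58), and it was the only one of the 8 members past 2-fold there, with 0 higher (1.98% of all genes) and 1 lower (4.26%). In shNFIB cells at day 0, *Myl9* was higher, with a ratio of 1.5 (1.32 to 1.69), and *Des* was lower on 9 reads, at -1.45 (-2.69 to -0.36). That is 1 member higher (2.95% of all genes) and 1 lower (6.05%). The *Myl9* ratio was 0.98 relative to *Actb*, and the *Des* ratio was -0.81 relative to *Gapdh*, and -0.98 and -0.26 with 0.1 and 1 added to each RPKM. On the *Actb* scale 15.8% of all genes were lower in shNFIB cells at day 0 and 1.38% were higher.

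In shMLL1 cells at day 0, 5 of the 8 members were lower, against 7.43% of all genes, and 0 were higher, against 1.67%. These were *Lmod1* at -2.08 (-2.45 to -1.72), *Tagln* at -1.73 (-2.00 to -1.46), *Actg2* at -1.28 (-1.48 to -1.07), *Myl9* at -1.26 (-1.51 to -1.01) and *Des*, on 23 reads, at -1.13 (-1.95 to -0.33). The abundant thin filament genes did not pass the limit, with *Acta2* at -0.60, *Tpm1* at 0.46 and *Tpm2* at 0.16. The *Des* ratio was -0.77 after quantile normalization, and -0.79 and -0.22 with 0.1 and 1 added to each RPKM.

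At day 5, *Myl9* at -1.56 (-1.83 to -1.30) and *Actg2* at -1.37 (-2.14 to -0.63) were lower in shKDM4D cells, which is 2 members lower (4.57% of all genes) and 0 higher (1.88%). In shNFIB cells *Lmod1* was lower at -1.44 (-1.63 to -1.26), with 1 member lower (5.67%) and 0 higher (5.54%). *Acta2* was at 0.88 (0.85 to 0.91) and *Actg2* at 0.60 (0.06 to 1.15) in shNFIB cells, under the limit. In shMLL1 cells *Myl9* at -2.18 (-2.43 to -1.93), *Actg2* at -1.75 (-2.44 to -1.09) and *Lmod1* at -1.46 (-1.60 to -1.33) were lower, so 3 members were lower (4.02% of all genes) and 0 higher (5.25%). *Tagln* could not be ordered at day 5, with intervals of -2.14 to 0.39, -1.51 to 0.94 and -1.77 to 0.32 in shKDM4D, shNFIB and shMLL1 cells. The adipocyte markers differed between these same day 5 libraries by the amounts given above, and their part in the ratios of the contractile genes was not tested.

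**Figure D4:**
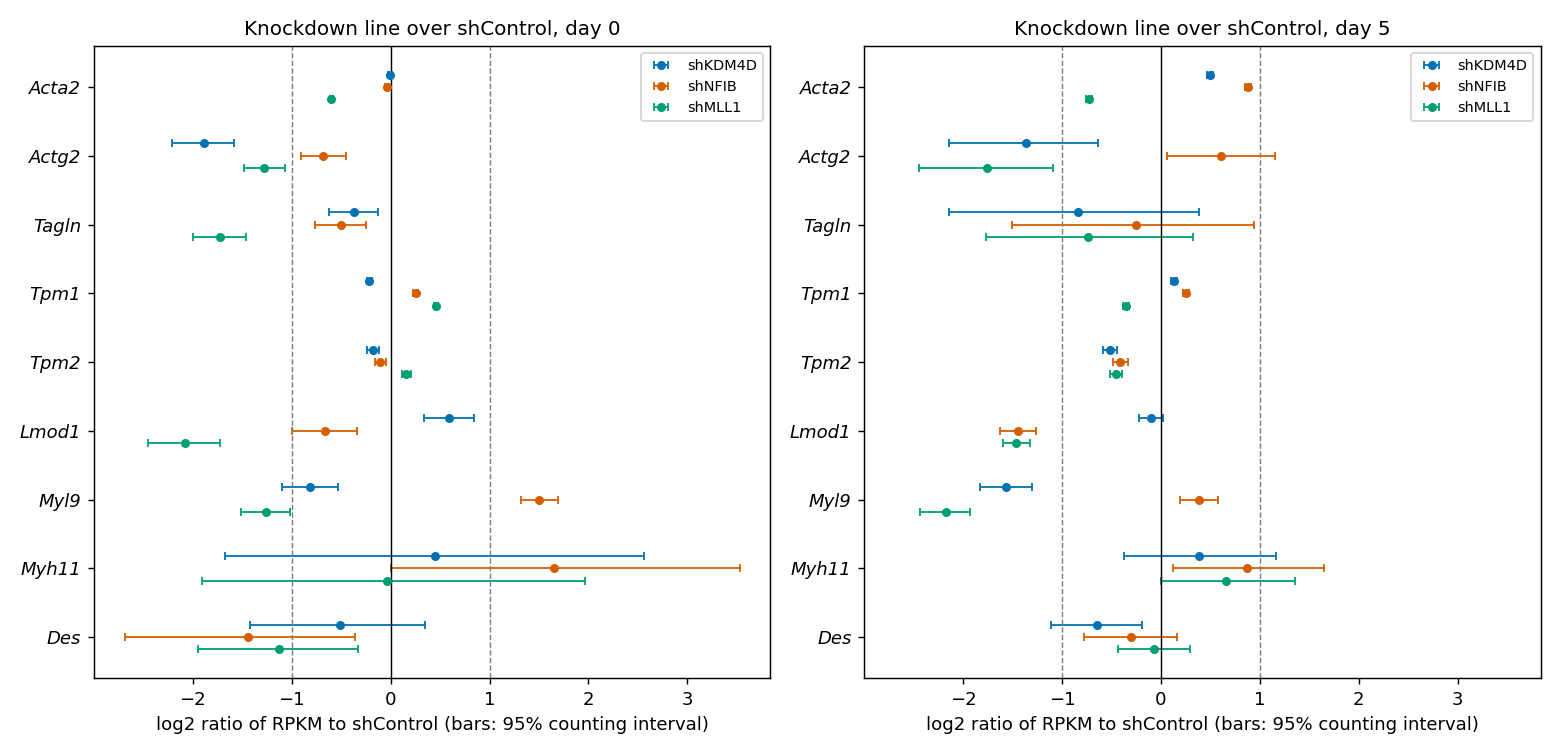
Log2 ratio of RPKM of each knockdown line to shControl cells at day 0 and at day 5 for 9 members, with bars for the 95% counting interval and dashed lines at 2-fold. *Myl9* is to the left in shKDM4D and shMLL1 cells and to the right in shNFIB cells on both days, and all 3 lines use the same shControl library of that day.

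With 0.1 added to each RPKM, the 10 members had a median log2 ratio to shControl at day 0 of -0.29 for shKDM4D, -0.30 for shNFIB and -0.77 for shMLL1, against 0.00, 0.03 and -0.07 over the 11513 genes. At day 5 this median was -0.31, 0.15 and -0.51, against 0.01, 0.09 and 0.07. *Myl9* was lower than in shControl cells in shMLL1 cells on both days and *Actg2* was lower on both days in shKDM4D and shMLL1 cells. With 1 added to each RPKM the day 5 ratios of *Actg2* were -0.71 and -0.86, under the limit. *Lmod1* was lower on both days in shMLL1 cells and had ratios of -0.66 at day 0 and -1.44 at day 5 in shNFIB cells.

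The change over the 5 days was compared between each knockdown line and shControl cells as a difference of log2 changes. Its intervals for counting error are a normal approximation and not exact. In shKDM4D cells 0 of the 8 members differed by more than 2-fold in either direction, against 2.21% of all genes with a larger and 2.97% with a smaller value. The difference for *Acta2* in shKDM4D cells was 0.50 (0.47 to 0.53). In shNFIB cells 2 members had a difference above 1 (6.3% of all genes), *Actg2* at 1.28 (0.72 to 1.85) and *Des* at 1.14 (-0.01 to 2.29), and 1 had a difference below -1 (3.86%), *Myl9* at -1.11 (-1.38 to -0.85). The interval of *Des* held 0. In shMLL1 cells 1 member had a difference above 1 (9.34%), *Des* at 1.05 (0.22 to 1.89), and 0 had one below -1 (2.69%). *Myl9* was at -0.91 (-1.26 to -0.57) and *Tpm1* at -0.81 (-0.85 to -0.78) in shMLL1 cells. These differences depended on the scale. In shNFIB cells the *Actg2* difference was 0.69 relative to *Gapdh* and the *Myl9* difference was -0.87 relative to *Actb*. The *Des* difference in shNFIB cells was 0.55 relative to *Gapdh*, 0.92 after quantile normalization, and 0.70 and 0.09 with 0.1 and 1 added to each RPKM. The *Des* difference in shMLL1 cells was under the limit in 5 of 6 alternatives, at 0.55 after quantile normalization, 0.91 with median-of-ratios scaling, 0.91 relative to *Gapdh*, and 0.72 and 0.18 with 0.1 and 1 added to each RPKM. With median-of-ratios scaling and relative to *Gapdh*, the *Myl9* difference in shMLL1 cells passed the limit below -1 (3.32% and 3.34% of all genes).

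The members other than *Des* were set beside their closest paralogues, and the share of each in the summed RPKM of its gene family was computed. The interval of a share covers the counting error of the member only and leaves out that of the paralogues. *Acta2* made up 41.1% (95% interval 40.9 to 41.3) of the RPKM of 6 actins in the shControl line at day 0 and 21.7% (21.5 to 22.0) of it at day 5. The share of *Acta2* was 37.5% and 27.1% in the shKDM4D, 32.4% and 29.7% in the shNFIB and 26.0% and 17.9% in the shMLL1 line at day 0 and day 5. It was lower at day 5 in each line, and the other actins detected at high level were *Actg1*, at an RPKM of 934 or more, and *Actb*, at 395 or more. Of the *Acta2* stretches of 50 bases, 0.326% are shared with *Actg1*, *Actg-ps1* and *Gm12715*. *Actg2* made up at most 0.41% of the actin RPKM.

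*Myl9* made up 14.1% and 17.4% of the RPKM of the 3 regulatory light chain genes in shControl cells at day 0 and day 5. Its share was 8.84% and 5.72% in the shKDM4D, 30.3% and 21.1% in the shNFIB and 8.45% and 5.23% in the shMLL1 line, and the rest came from *Myl12a* and *Myl12b*, which serve non-muscle myosin as well. *Tpm1* held between 19.9% and 28.3% and *Tpm2* between 8.93% and 12.7% of the RPKM of the 4 tropomyosin genes, the rest being *Tpm3* and *Tpm4*. *Tagln* held 5.32% of the transgelin RPKM in the shControl line at day 0 and 0.54% of it at day 5, while *Tagln2* had an RPKM of 65.1 or more in every library. *Cnn1* held at most 0.03% of the calponin RPKM and *Myh11* at most 0.35% of the myosin II heavy chain RPKM. *Lmod1* was the leiomodin detected, with a share of at least 99.4%. In all families but the leiomodins, the paralogues not restricted to smooth muscle carried most of the signal in every library.

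**Figure D5:**
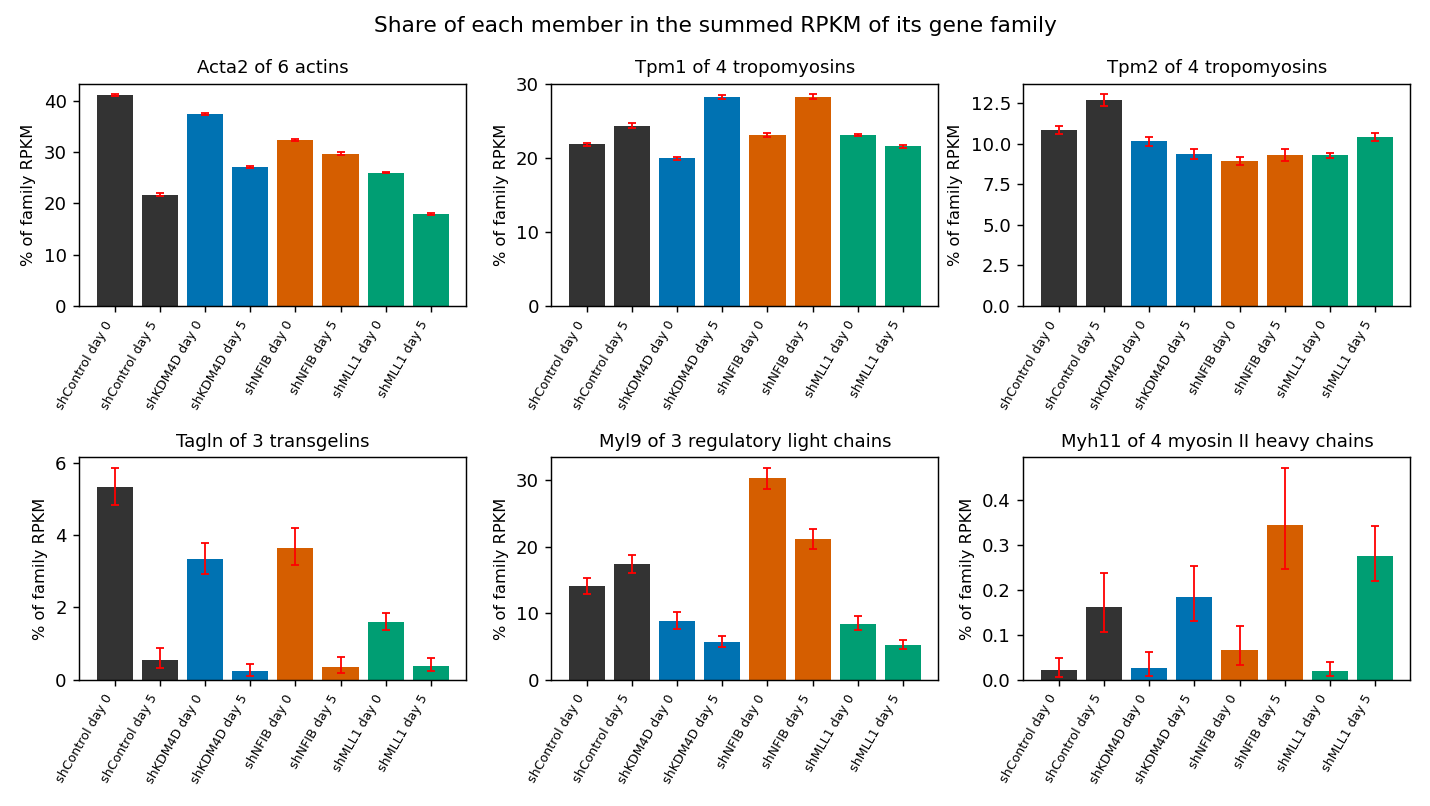
Share of 6 members in the summed RPKM of their gene family in the 8 libraries, as bars from 0 with red bars for the 95% interval. The interval covers the counting error of the member only, and each panel has its own scale. *Acta2* drops from 41.1% to 21.7% of the actin RPKM in shControl cells, *Myl9* is highest in the shNFIB libraries, and *Myh11* stays at or below 0.35%.

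The other genes of the pathway were counted from lists chosen with earlier results of these data known. Of 16 regulators of the contractile genes, 14 were over 1 RPKM. *Srf* was between 13.7 and 19.8, *Mkl1* between 5.29 and 11.04 and *Mkl2* between 2.68 and 5.35, these last encoding the myocardin-related factors, and none of these passed 2-fold in any of the 10 comparisons of 2 libraries. Myocardin itself, *Myocd*, had 0 to 2 reads in every library. From day 0 to day 5, 2 of the 14 regulators rose and 2 fell in shControl cells (13.0% and 8.56% of all genes) and in shKDM4D cells (12.8% and 8.44%), and 1 rose and 2 fell in both the shNFIB (12.6% and 4.96%) and the shMLL1 line (20.4% and 6.89%). *Notch3*, a receptor that supports the smooth muscle state, rose in all 4 lines, with an RPKM of 3.41 and 9.31 in shControl and 2.85 and 12.7 in shMLL1 cells. *Klf4*, a repressor of contractile genes, had 93.4 and 32.0 in the shControl, 91.3 and 40.3 in the shKDM4D, 95.4 and 65.8 in the shNFIB and 66.4 and 45.9 in the shMLL1 line, and it fell past 2-fold in shControl and shKDM4D cells. *Gata6* was the other regulator that rose in shControl and shKDM4D cells. It passed the filter on low values through day 5 libraries alone, with at most 0.680 at day 0, so the filter favours its rise. *Klf5* fell in all 4 lines, and it passed the filter through its day 0 libraries alone, so its fall is favoured as well. *Tead1* fell in shNFIB cells, by 1.10 on the log2 scale, and in shMLL1 cells. *Elk3*, an ETS factor that partners SRF, had its largest ratio under the limit, a change of -0.97 in shMLL1 cells. Against shControl cells, *Notch3* was higher in shNFIB cells at day 0 (2.95% of all genes), at 7.55 against 3.41, and *Klf4* and *Klf5* were higher in shNFIB cells at day 5 (5.54%). No regulator passed 2-fold in the shKDM4D or the shMLL1 line. Of all genes, 1.98% were higher and 4.26% lower in shKDM4D cells at day 0, and 1.88% and 4.57% at day 5. In shMLL1 cells these shares were 1.67% and 7.43% at day 0 and 5.25% and 4.02% at day 5.

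Of 30 other contractile and cytoskeletal genes of smooth muscle, 26 were over 1 RPKM. From day 0 to day 5, 8 rose (13.0% of all genes) and 0 fell (8.56%) in shControl cells, 7 rose (12.8%) and 2 fell (8.44%) in shKDM4D cells, 4 rose (12.6%) and 1 fell (4.96%) in shNFIB cells, and 8 rose (20.4%) and 3 fell (6.89%) in shMLL1 cells. *Mylk*, the kinase that phosphorylates the regulatory light chain, rose in all 4 lines, from 0.540 to 3.32 in shControl and from 0.249 to 1.31 in shMLL1 cells, and *Synpo2*, *Itga8* and *Aoc3* also rose in each. *Itga8* and *Aoc3* passed the filter on low values through day 5 libraries alone, with at most 0.117 and 0.398 at day 0, so the filter favours their rises. *Aoc3*, an amine oxidase of smooth muscle and of adipocytes, went from 0.398 to 42.8 in shControl and from 0.0464 to 5.52 in shNFIB cells. *Fhl1*, a LIM protein of muscle, rose in the shControl, shKDM4D and shMLL1 lines, from 2.60 to 11.1 in the last, and went from 25.8 to 51.2 in shNFIB cells, a log2 change of 0.99. Against shControl cells at day 0, 1 gene of this list was higher (1.98% of all genes) and 3 were lower (4.26%) in the shKDM4D line, 2 (2.95%) and 3 (6.05%) in the shNFIB line, and 0 (1.67%) and 7 (7.43%) in the shMLL1 line. At day 5 none was higher in any line (1.88%, 5.54% and 5.25% of all genes), and 3 were lower in the shKDM4D (4.57%), 6 in the shNFIB (5.67%) and 9 in the shMLL1 line (4.02%). *Csrp2*, a LIM protein of smooth muscle, had 38.1 in shControl cells at day 5 against 12.4, 11.9 and 12.3 in the 3 knockdown lines. *Synm*, an intermediate filament protein that partners desmin, had 8.90 in shControl cells at day 5 against 6.72 in the shKDM4D, 3.41 in the shNFIB and 1.81 in the shMLL1 line.

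Of 20 paralogues of the members, 14 were over 1 RPKM, and from day 0 to day 5 0 rose (13.0% of all genes) and 2 fell (8.56%) in shControl cells, 0 rose (12.6%) and 2 fell (4.96%) in shNFIB cells, 1 rose (12.8%) and 2 fell (8.44%) in shKDM4D cells, and 0 rose (20.4%) and 4 fell (6.89%) in shMLL1 cells. *Acta1* and the intermediate filament gene *Nes* fell in all 4 lines. In shMLL1 cells *Tpm4* and *Tagln2* also fell, by 1.29 and 1.04 on the log2 scale, and *Cnn3* rose in shKDM4D cells by 1.13. Against shControl cells 0 paralogues were higher in the shKDM4D, the shNFIB or the shMLL1 line (1.98%, 2.95% and 1.67% of all genes at day 0 and 1.88%, 5.54% and 5.25% at day 5). *Acta1*, on 10 to 57 reads, was the 1 paralogue that was lower at day 0 in each line (4.26%, 6.05% and 7.43% of all genes in the shKDM4D, the shNFIB and the shMLL1 line), and 0 were lower at day 5 (4.57%, 5.67% and 4.02%). *Acta1* passed the filter on low values through shControl cells at day 0 alone, at an RPKM of 1.39. That library is the reference of each of these ratios and the start of the fall in shControl cells, so both are favoured by the filter.

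All 11 myofibroblast genes examined were over 1 RPKM, and they moved in both directions. From day 0 to day 5, 2 rose (13.0% of all genes) and 1 fell (8.56%) in shControl cells, 2 rose (12.8%) and 2 fell (8.44%) in shKDM4D cells, 2 rose (12.6%) and 2 fell (4.96%) in shNFIB cells, and 3 rose (20.4%) and 0 fell (6.89%) in shMLL1 cells. *Postn*, the matrix protein periostin, rose in every line, from 34.5 to 233 in shControl, 15.6 to 285 in shKDM4D, 10.3 to 285 in shNFIB and 11.2 to 221 in shMLL1 cells. *Cdh11*, a cadherin of mesenchymal cells, also rose in every line. Against shControl cells at day 0, 1 gene of this list was higher (1.98%) and 1 lower (4.26%) in the shKDM4D, 2 higher (2.95%) and 2 lower (6.05%) in the shNFIB, and 0 higher (1.67%) and 4 lower (7.43%) in the shMLL1 line. At day 5, 1 was higher (1.88%) and 0 lower (4.57%) in the shKDM4D, 2 higher (5.54%) and 1 lower (5.67%) in the shNFIB, and 2 higher (5.25%) and 0 lower (4.02%) in the shMLL1 line. The genes *Ctgf* and *Thbs1*, known targets of TGF-beta and of mechanical load, were higher in shNFIB cells than in shControl cells on both days and in shMLL1 cells at day 5, and *Thbs1* was higher on both days in shKDM4D cells. *Thbs1* had 98.5 in shNFIB cells at day 0 against 15.2 in shControl cells, and 40.7 against 9.52 at day 5. *Ctgf* had 47.9 against 16.4 at day 0 and 20.9 against 6.91 at day 5. *Fn1*, the matrix protein fibronectin, was lower in shNFIB cells on both days, at 172 against 438 and 183 against 385, and *Postn* was lower at day 0 in all 3 knockdown lines.

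The genes whose pattern over the 8 libraries was most like the mean log2 profile of the 10 members were searched among the 7928 other genes with an RPKM of at least 5 in at least 1 library. They were *Sun1* (Pearson's r = 0.95), *Rtn3* (0.90), *Commd4* (0.90), *Anxa7* (0.90) and *Mustn1* (0.90), given as a description over 8 libraries that share lines and days. The RPKM of *Mustn1* was 18.4 and 10.5 in shControl and 8.15 and 7.11 in shMLL1 cells at day 0 and day 5. The mean profile itself stood for only some members. The correlation with it was 0.77 for *Myl9*, 0.74 for *Actg2*, 0.73 for *Acta2*, 0.58 for *Tagln*, 0.40 for *Tpm2*, 0.35 for *Tpm1*, 0.06 for *Cnn1*, -0.05 for *Lmod1*, -0.29 for *Des* and -0.35 for *Myh11*, each member being part of the mean.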

How the data were processed

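RNA of C3H10T1/2 cells was sequenced in 8 libraries (SMARTer kit, Illumina), and the authors mapped the reads to GRCm38 (mm10) with CLC Genomics Workbench and deposited RPKM per gene. The methods name quantile normalization, but the deposited RPKM values have a different distribution in each library. The members and all gene lists were chosen with earlier results of these data known. Reads were recovered as RPKM times exon length (GENCODE M21) times mapped reads, and between 96.2% and 96.6% of the values came out within 0.02 of a whole read. All 10 members did so in all 8 libraries, *Acta2* with a length of 1781 bases found by search in place of the annotated 2196. No count model was run, because 1 library per condition leaves no spread to estimate. A gene was called when RPKM differed by more than 2-fold, with no pseudocount, among genes over 1 RPKM in at least 1 library; medians used a pseudocount of 0.1. Intervals of a ratio are exact 95% Clopper-Pearson intervals on reads, and those of a level are exact Poisson intervals. The interval of a difference of log2 changes is a normal approximation from the reads of the libraries involved. That of a family share varies the reads of the member only, with the RPKM of its paralogues held fixed. All members were named, with *Srf*, *Myocd*, *Mkl1* and *Mkl2*, of each list the 4 genes with the largest log2 ratio among those reaching an RPKM of 5, and the 5 genes most like the members; other genes were named after their values were seen. The results of 1 other list and of 1 myofibroblast gene are not reported here. The steps were tested on simulated data (Python 3.11.15, scipy 1.17.1).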

Additional observations from a re-analysis of the deposited data

Results flagged for a closer look

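In 6 cases 2 effects on the same member had opposite signs, and none of these differences could be tested with 1 library per condition. The log2 ratio of *Acta2* in shNFIB to shControl cells was -0.04 at day 0 and 0.88 at day 5, a difference of 0.917, and relative to *Gapdh* both ratios were positive (0.60 and 0.92). For *Actg2* in shNFIB cells the ratios were -0.68 and 0.60, a difference of 1.28, with opposite signs under each scale tried. The change of *Myl9* from day 0 to day 5 was 0.73 in shControl and -0.39 in shNFIB cells, 1.11 apart, and the signs stayed opposite under each scale tried. The ratio of *Tpm1* to shControl cells was -0.22 at day 0 and 0.14 at day 5 in shKDM4D cells, a difference of 0.352. In shMLL1 cells the *Tpm1* ratios were 0.46 and -0.35, a difference of -0.813, while relative to *Actb* they were 0.10 and 0.08. The *Tpm2* ratios in shMLL1 cells were 0.16 and -0.46, a difference of -0.613, and relative to *Gapdh* (-0.05 and -0.81) and to *Actb* (-0.20 and -0.02) both were negative.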

How the results depend on the processing

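The 13 counts of members past 2-fold were recomputed under 11 other settings. A limit to protein coding genes could change none of them, because all 10 members are protein coding. Removing the filter of 1 RPKM could add only *Myh11*, as *Cnn1* was left out of these counts. Of the 143 values, 124 stayed within 1.5 times the count given above and 19 did not. Those 124 include the 13 of the limit to protein coding genes. Each count adds both directions, so a member that replaced another left the count unchanged. With median-of-ratios scaling all 13 counts were scored as unchanged, although *Des* was lost from the differences in shMLL1 cells, at 0.91. There *Myl9* took its place, so the member counted changed from a higher to a lower one. The same replacement occurred relative to *Gapdh*. At a limit of 1.5-fold the counts became 3 and 4 for shKDM4D and shNFIB cells at day 0 (14.1% and 20.9% of all genes in either direction), 4, 3 and 5 at day 5 for the shKDM4D, the shNFIB and the shMLL1 line (14.6%, 26.4% and 21.2%), and 2, 5 and 6 for the differences of the day changes in shKDM4D, shNFIB and shMLL1 cells (13.2%, 24% and 26.4%). Relative to *Gapdh* the count was 2 in shKDM4D (9.41% of all genes) and 1 in shNFIB cells (22.7%) at day 0 and 5 in shMLL1 cells at day 5 (11.3%). Relative to *Actb* it was 2 in shKDM4D cells at day 0 (7.73%), 4 in shNFIB cells at day 0, where all 4 were lower and 15.8% of all genes were lower with their median moved by -0.52, and 3 for the differences in shMLL1 cells, all higher, as were 45.3% of all genes. A filter of 5 RPKM left 1 for shNFIB cells at day 0 and 0 for the differences in shMLL1 cells, because *Des* was not counted. A pseudocount of 0.1 left 1 for shNFIB cells at day 0 (6.91% of all genes), and a pseudocount of 1 left 1 there (2.82%) and 1 for shKDM4D cells at day 5 (2.45%). There were 42 log2 ratios or differences of members past 2-fold, with those of *Myh11* included although it did not reach 1 RPKM. All 252 values of them under the other scales had the same sign and 220 stayed past 2-fold. An added pseudocount cannot change the sign of a ratio of 2 libraries, so the signs under those settings were fixed in advance for the ratios. The scales moved the median of all genes by up to 0.83 relative to *Actb* (change over time in shMLL1 cells) and 0.64 relative to *Gapdh* (shNFIB cells at day 0), and by -0.27 after quantile normalization (change in shMLL1 cells), and the cause was not tested. Ranking by Spearman's rank correlation changed which genes were most like the members. No paired analysis was possible because each condition has 1 library and no replicate number, and no library could be left out for the same reason. Depth limits *Cnn1*, *Myh11*, *Des* at day 0 and *Tagln* at day 5.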

Other observations

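*Mcam*, a cell adhesion molecule of smooth muscle and pericytes, was singled out after its values were seen. Its RPKM went from 1.18 at day 0 to 4.42 at day 5 in the shControl line, a log2 change of 1.91 (95% counting interval 1.58 to 2.25), and from 2.95 to 0.787 in the shKDM4D, 1.15 to 0.301 in the shNFIB and 1.72 to 0.689 in the shMLL1 line. *Mcam* thus rose in shControl cells and fell in the other lines, with log2 changes of -1.91, -1.93 and -1.32, on 286, 57, 16 and 88 reads at day 5. The difference was not tested, as each condition has 1 library.

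*Tnnt2*, which encodes the troponin T of heart muscle, was the cardiac marker over 1 RPKM. It fell from 1.34 to 0.0868 in the shControl, 2.74 to 0.179 in the shKDM4D, 4.34 to 1.02 in the shNFIB and 3.13 to 0.359 in the shMLL1 line. On both days *Tnnt2* was lowest in shControl cells and highest in shNFIB cells.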
